A study of Mus musculus with 12 samples.

Results

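The genes described here are 39 mouse genes that build, attach and remodel the glycosylphosphatidylinositol (GPI) anchor or build the lipid-linked sugar precursor of N-glycans. Most act in the endoplasmic reticulum, whereas Pgap2 and Pgap3 act later, in the Golgi. They were taken by gene name from a fixed list and make up 39 of the 40077 genes in the cell tables and 39 of the 34508 genes in the tumor tables. Of these, 25 act on the GPI anchor, 4 make or use dolichol-phosphate mannose or glucose, and 10 build the N-glycan precursor. The GPI genes were chosen by their measured values, because that pathway was among the few that were lower in the treated cells, and the N-glycan genes were added as neighbors in the same compartment. The values from cultured cells are therefore a description, and where members past a threshold are counted there, the count stands beside the share of all genes and is not read as a test. Only tumor values of the members, which the choice did not use, are read as tests.

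The study asked how degradation of CDK12 and CDK13 by YJ1206 affects tumor cells. YJ1206 belongs to the proteolysis-targeting chimeras (PROTACs), which recruit a ubiquitin ligase to their targets, here the transcriptional kinases. Myc-CaP cells, a single line from a prostate carcinoma of a mouse carrying a prostate-driven human MYC transgene, received DMSO or 1 μM YJ1206 for 24 hours. The tumors were subcutaneous Myc-CaP grafts in male FVB mice that retain their own stroma and immune cells, treated by mouth with vehicle or with YJ1206 at 100 mg/kg, 3 times per week. RNA was sequenced in 12 libraries, 3 per group, and all groups carry the same cell line. The methods speak of independent biological replicates but the labels name no culture or animal, so p-values measure the spread between these libraries.

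A GPI anchor is a glycolipid that is assembled step by step on phosphatidylinositol and then transferred as a block to the carboxyl end of certain proteins, which it holds on the outer face of the plasma membrane. N-glycans start in a similar way, as a branched sugar built on the lipid dolichol, first on the cytosolic and then on the lumenal face of the endoplasmic reticulum, and are then moved as a block to asparagine residues. Both pathways draw mannose from dolichol-phosphate mannose, and loss of many of these enzymes causes inherited disorders of glycosylation in humans.

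Total counts were 13936902 to 18519926 per library in cells and 15391544 to 26928365 in tumors, so that 3 counts in a library correspond to 0.162 to 0.215 counts per 1000000 (CPM) in cells and 0.111 to 0.195 CPM in tumors. The names of the DMSO and of the YJ1206 cell libraries run in separate number ranges. Whether they were prepared apart is not given in the sources used here, and an effect of that kind could not be told apart from treatment. In tumors, library 3 of each group lay between libraries 1 and 2 for 98.0% (vehicle) and 97.1% (YJ1206) of the genes that differed between those libraries at an absolute z above 5, and for 9 of 9 and 1 of 1 such members. Over 14258 and 14256 genes, tumor libraries 1 and 2 differed with a chi-square per gene of 53.3 (vehicle) and 15.0 (YJ1206), where counting noise alone gives 1. Library 3 differed from the best weighted mean of those libraries by 1.82 and 2.19 per gene, and the cell libraries differed from such means by 1.83 to 2.04. Both tumor values are thus near those between cell libraries, with weights of 0.61 and 0.36 on library 1. All p-values from 6 tumor libraries count library 3 as a separate sample, which these values do not show. Results are also given without library 3. The androgen receptor and Myc, which mark the line, summed to 3210 to 4190 CPM in cells and 2920 to 4370 CPM in tumors. Of the epithelial markers, Epcam was at 0 in every cell library, and Krt18 was at most 0.615 CPM there. Krt8 was 2.77 to 3.15 CPM in DMSO cells and 31.8 to 33.4 CPM in YJ1206 cells.

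Promoters are shown for the members with the most negative and the most positive values in cells, so that the start regions of genes at both ends of the range can be compared. RefSeq (GRCm38.p6) held a promoter window, from 250 bases before to 50 bases after the start, for 33 of the 39 members. Alg11, Alg2, Gpaa1, Pigg, Pigk and Pigm were without one, so the next members in order were used. The windows are chr9:73039650-73039949 (minus strand) for Pigb, chr7:97371367-97371666 (plus strand) for Alg8, chr1:54557635-54557934 (minus strand) for Pgap1 and chr11:69662600-69662899 (minus strand) for Mpdu1. In the GENCODE gene models the start of Pigb (chr9:73040378) lies upstream of its window and outside it. The starts of Alg8, Pgap1 and Mpdu1 lie inside theirs. Capitals mark matches on either strand to the motifs CACGTG (E-box), CCAAT (bound by NF-Y), TGACG (the core of a cAMP response element) and CCGGAA (bound by ETS factors), where the end of CACGTG can overlap the start of TGACG.
Pigb: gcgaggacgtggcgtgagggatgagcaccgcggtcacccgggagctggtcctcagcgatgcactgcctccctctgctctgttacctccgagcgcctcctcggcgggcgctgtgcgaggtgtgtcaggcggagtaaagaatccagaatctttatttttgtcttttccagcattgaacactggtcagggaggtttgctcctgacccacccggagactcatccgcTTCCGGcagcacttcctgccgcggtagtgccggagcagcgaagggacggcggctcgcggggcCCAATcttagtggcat
Alg8: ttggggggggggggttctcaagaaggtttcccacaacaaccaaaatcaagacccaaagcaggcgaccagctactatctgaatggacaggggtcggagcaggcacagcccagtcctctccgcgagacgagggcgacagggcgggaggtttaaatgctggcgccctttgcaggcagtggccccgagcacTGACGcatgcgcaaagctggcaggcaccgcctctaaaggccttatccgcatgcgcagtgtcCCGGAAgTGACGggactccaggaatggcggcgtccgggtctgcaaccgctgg
Pgap1: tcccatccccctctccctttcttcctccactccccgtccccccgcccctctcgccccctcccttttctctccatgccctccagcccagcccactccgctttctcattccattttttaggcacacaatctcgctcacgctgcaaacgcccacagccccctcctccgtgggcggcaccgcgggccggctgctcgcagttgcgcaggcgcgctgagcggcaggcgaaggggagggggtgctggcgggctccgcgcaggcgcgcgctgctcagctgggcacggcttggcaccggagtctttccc
Mpdu1: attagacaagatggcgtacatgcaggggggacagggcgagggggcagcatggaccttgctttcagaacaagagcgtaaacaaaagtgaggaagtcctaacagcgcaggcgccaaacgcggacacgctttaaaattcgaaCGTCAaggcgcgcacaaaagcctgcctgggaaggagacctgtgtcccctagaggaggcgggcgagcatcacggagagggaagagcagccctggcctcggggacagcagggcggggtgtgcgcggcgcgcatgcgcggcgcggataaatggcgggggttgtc
CCGGAA or its reverse complement stood in the windows of Pigb and Alg8 and in neither of the other windows. Over the 33 members with a window, 48.5% held this motif, against 30.2% of the genes tested in cells and 15.2% of all promoters in RefSeq. CCAAT was found in 42.4% of members and 40.0% of tested genes, TGACG in 33.3% and 33.1%, and CACGTG in 9.1% and 10.5%. The members' windows had a median GC content of 60.3%, beside 61.0% for the tested genes. These are matches of letters, and no binding was measured.

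On a scale per transcript length, the pathways ran at low to moderate levels. In DMSO cells the highest mean level was that of Pigt, a core subunit of the transamidase, at 65.6 ± 2.08 transcripts per 1000000 (TPM; SD, n = 3). Dpm3, the small anchoring subunit of dolichol-phosphate mannose synthase, followed at 59.0 ± 9.31 TPM and Pgap2, a lipid remodelling factor, at 56.9 ± 5.36 TPM. The range of Dpm3 (50.6 to 69.0 TPM) overlapped those of both others, while Pigt (63.5 to 67.7 TPM) lay above Pgap2 (51.8 to 62.5 TPM). At the low end stood Pgap1, the inositol deacylase, at 1.34 ± 0.251 TPM, Pigv at 3.03 ± 0.144 TPM and Pgap3 at 3.20 ± 0.333 TPM. Of the members that could be tested, Pgap1 had the lowest mean in DMSO cells and in both tumor groups, whereas in YJ1206 cells Pigm was lowest, at 1.46 ± 0.209 TPM. The members' TPM values summed to 917 to 962 in the DMSO libraries and 607 to 612 in the YJ1206 libraries of the cells. In tumors the sums were 1124 to 1237 with vehicle and 1123 to 1193 with YJ1206, and these ranges overlapped.

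**Figure D1:**
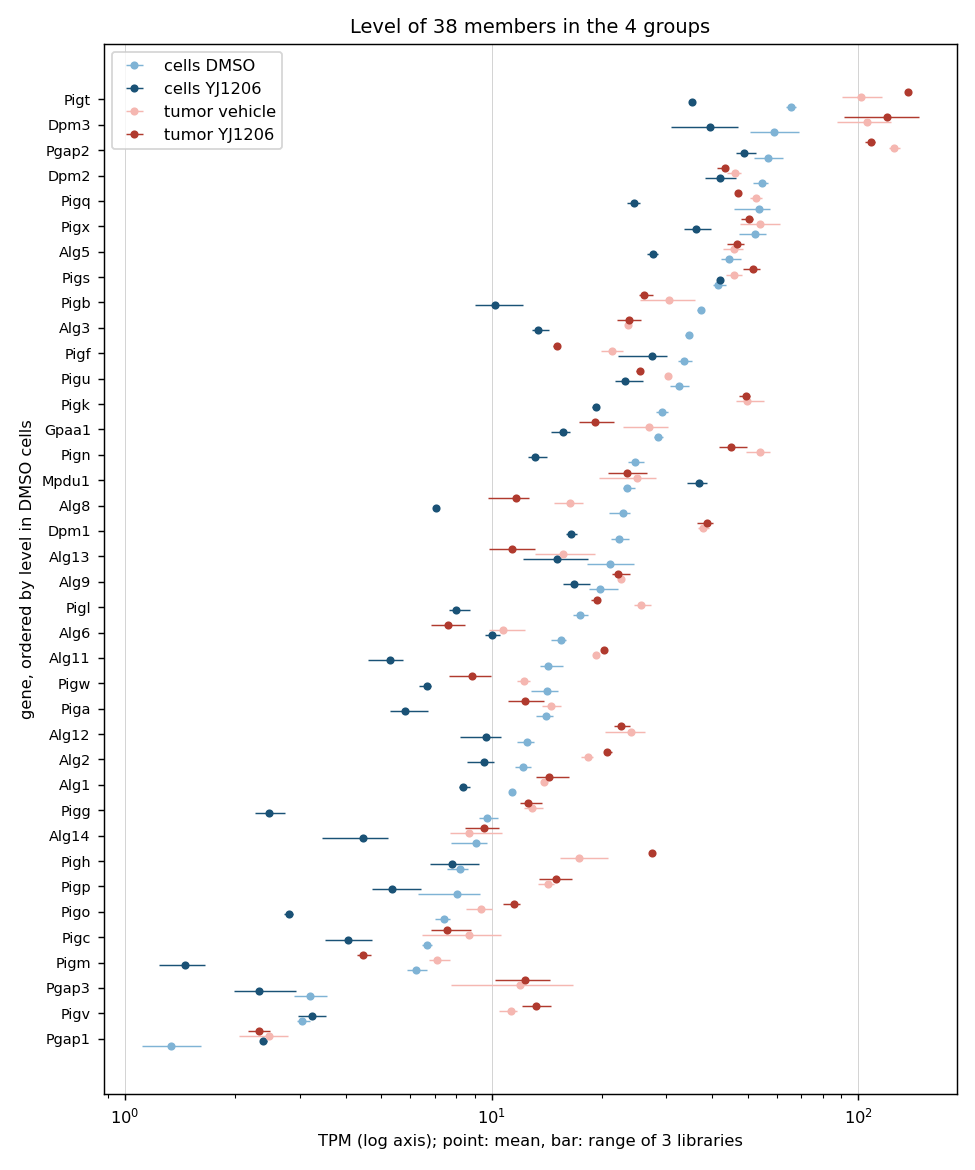
Mean level of 38 members in TPM (log axis) in the 4 groups, with bars for the range of 3 libraries, ordered by level in DMSO cells. Levels run from Pgap1 (1.34 TPM) to Pigt (65.6 TPM) in DMSO cells, and Pigm, Pigg, Pigb and Alg8 stand well to the left in YJ1206 cells. Pigz, which is listed at 0 in several libraries, is not drawn.

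In cultured cells, most members were lower with YJ1206, and the span was wide. The fitted log2 fold changes ran from -1.78 for Pigm to 1.13 for Pgap1, with standard errors of 0.04 to 0.25. Of the 38 members that passed the count filter, 30 had a fitted value below 0 and 8 above, and their median was -0.28 against -0.02 for all 11826 genes tested. At the threshold used for tumors (edgeR, adjusted p under 0.05), 22 members were lower and 5 higher, where 38.3% of all genes were lower and 37.8% higher. Groups did not overlap for 22 lower and 4 higher members, where this held for 39.2% and 38.4% of all genes. Since this contrast chose the pathway, nothing is read from these counts. Scaling mattered for the size of the values: with total counts alone the members' median was -0.46 and that of all genes -0.20, and on log2(TPM + 1) they were -0.58 and -0.24. Relative to all genes the members' median was -0.26, -0.26 and -0.33 under the 3 scalings.

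The lowest values in cells were among the enzymes that decorate the anchor between its first sugar and its transfer to protein. Pigm adds the first mannose and lies at chr1:172376546-172384099 (GRCm38, plus strand) as a gene of a single exon. It was at 30.0, 27.3 and 26.2 CPM in the DMSO libraries and at 9.09, 8.23 and 6.92 CPM in the YJ1206 libraries, a fitted fold of 0.291 (log2 -1.78, SE 0.10). Every treated library was below every control library by a wide margin. Pigg transfers ethanolamine phosphate to the second mannose (chr5:108312609-108349355, plus strand) and was at 25.1, 24.6 and 27.5 CPM, then 7.37, 8.68 and 7.38 CPM with YJ1206, a fitted fold of 0.304. Pigb adds the third mannose (chr9:73007419-73040378, minus strand) and was at 51.5, 52.3 and 50.1 CPM, then 16.2, 20.4 and 15.6 CPM, a fitted fold of 0.339. The groups of both genes were far apart, and the Pigb promoter is shown above. Pigo, which modifies the third mannose together with Pigf, was at 15.9, 17.2 and 16.7 CPM, then 8.44, 7.62 and 7.77 CPM, a fitted fold of 0.479. Exons of Pigb overlap Ccpg1 on the opposite strand, and exons of Pigg overlap a predicted transcript. In all, 13 members have exons that overlap a gene on the opposite strand. Besides Pigb and Pigg these are Pigh, Pigp, Pigq, Pigl, Pigw, Pigf, Pigk, Mpdu1, Alg1, Alg3 and Alg9. Whether reads were assigned by strand is not given in the sources used here, so reads from such pairs may not be told apart. Exons of Pigc, Pigh, Pigp, Pigq, Pign, Pigz, Pgap2 and Dpm1 overlap a gene on the same strand, where strand could not separate the reads.

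Among the other genes of these middle steps, Pign (ethanolamine phosphate on the first mannose), Pigw (inositol acylation) and Pigl (deacetylation of the first sugar) had fitted folds of 0.502, 0.554 and 0.570, each without overlap between groups. Pigx, the partner of Pigm, had 0.867 with overlapping groups. Pigf, which works with both Pigo and Pigg, had 1.02 with overlapping groups, and its sign turned under total counts and under TPM. Pigv, which adds the second mannose, was the exception among these genes, at 6.05, 5.63 and 6.70 CPM in DMSO and 8.80, 7.47 and 7.61 CPM in YJ1206 cells, a fitted fold of 1.30 without overlap. Pigz, which adds the fourth mannose, did not pass the filter. It had 0, 0 and 1 counts in DMSO cells and 0, 0 and 0 counts in YJ1206 cells, at or under the floor of 3 counts per library, so no fold is given.

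The first step attaches a sugar to phosphatidylinositol and uses a complex of several subunits. Piga, the catalytic subunit on chromosome X, had a fitted fold of 0.552 and Pigq, a stabilizing subunit, 0.588, and both had no overlap between groups. Pigc stood at 0.864, Pigp at 0.840 and Dpm2, a subunit shared with dolichol-phosphate mannose synthase, at 0.940. Pigh was at 11.3, 9.81 and 11.0 CPM in DMSO and at 10.7, 11.8 and 15.2 CPM in YJ1206 cells, which overlap, with a fitted fold of 1.17 whose sign turned on the TPM scales. Members of this complex therefore spread from below 0.6 to above 1 in the same libraries.

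The transamidase cuts the protein and attaches the finished anchor. Its subunits differed in direction: Pigt had a fitted fold of 0.664, Gpaa1 0.666 and the catalytic subunit Pigk 0.775, each without overlap, and Pigu 0.883 with overlap. Pigs was at 55.9, 60.3 and 55.2 CPM in DMSO and 71.2, 70.1 and 73.8 CPM in YJ1206 cells, a fitted fold of 1.26 without overlap. After transfer, Pgap1 removes the acyl chain from inositol, and Pgap2 and Pgap3 exchange a lipid chain. Pgap1 (chr1:54472994-54557684, minus strand) had the highest value of all members, at 10.2, 7.13 and 8.16 CPM in DMSO and 19.0, 18.4 and 18.5 CPM in YJ1206 cells, a fitted fold of 2.19 (log2 1.13, SE 0.11). Its groups were far apart, whereas those of Pgap2 (fold 1.15, below 1 on the TPM scales) and Pgap3 (0.889) overlapped.

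Among the dolichol-phosphate sugar donors, Mpdu1, which is needed for the use of dolichol-phosphate mannose and glucose in the lumen, was at 13.3, 14.9 and 14.7 CPM in DMSO and 23.3, 25.7 and 26.5 CPM in YJ1206 cells. This is a fitted fold of 1.76 (log2 0.81, SE 0.08) without overlap, and exons of Mpdu1 overlap Sox15 on the opposite strand. Alg5, the dolichol-phosphate glucose synthase, stood at 0.773 without overlap. Dpm1, the catalytic subunit of dolichol-phosphate mannose synthase, stood at 0.926 and Dpm3 at 0.857, both with overlap.

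On the N-glycan arm, 9 of 10 genes had a fitted value below 0 in cells. Alg8, which adds the second glucose in the lumen (chr7:97371606-97392185, plus strand), was at 25.9, 23.0 and 25.9 CPM in DMSO and 9.66, 9.51 and 9.54 CPM in YJ1206 cells, a fitted fold of 0.384 (log2 -1.38, SE 0.09). The treated libraries hardly differed from each other and lay far below the controls. Alg3, which adds the first lumenal mannose, had a fold of 0.484 and Alg11, which adds the last cytosolic mannoses, 0.488. Alg14 and Alg13, which form the transferase for the second sugar, had 0.558 and 0.639, and Alg6, which adds the first glucose, 0.810. Groups did not overlap for any of these, nor for Alg12 (0.851) or Alg1 (0.915). Alg2 (0.955) and Alg9 (1.07) overlapped, and the sign of Alg9 turned under total counts and TPM.

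**Figure D2:**
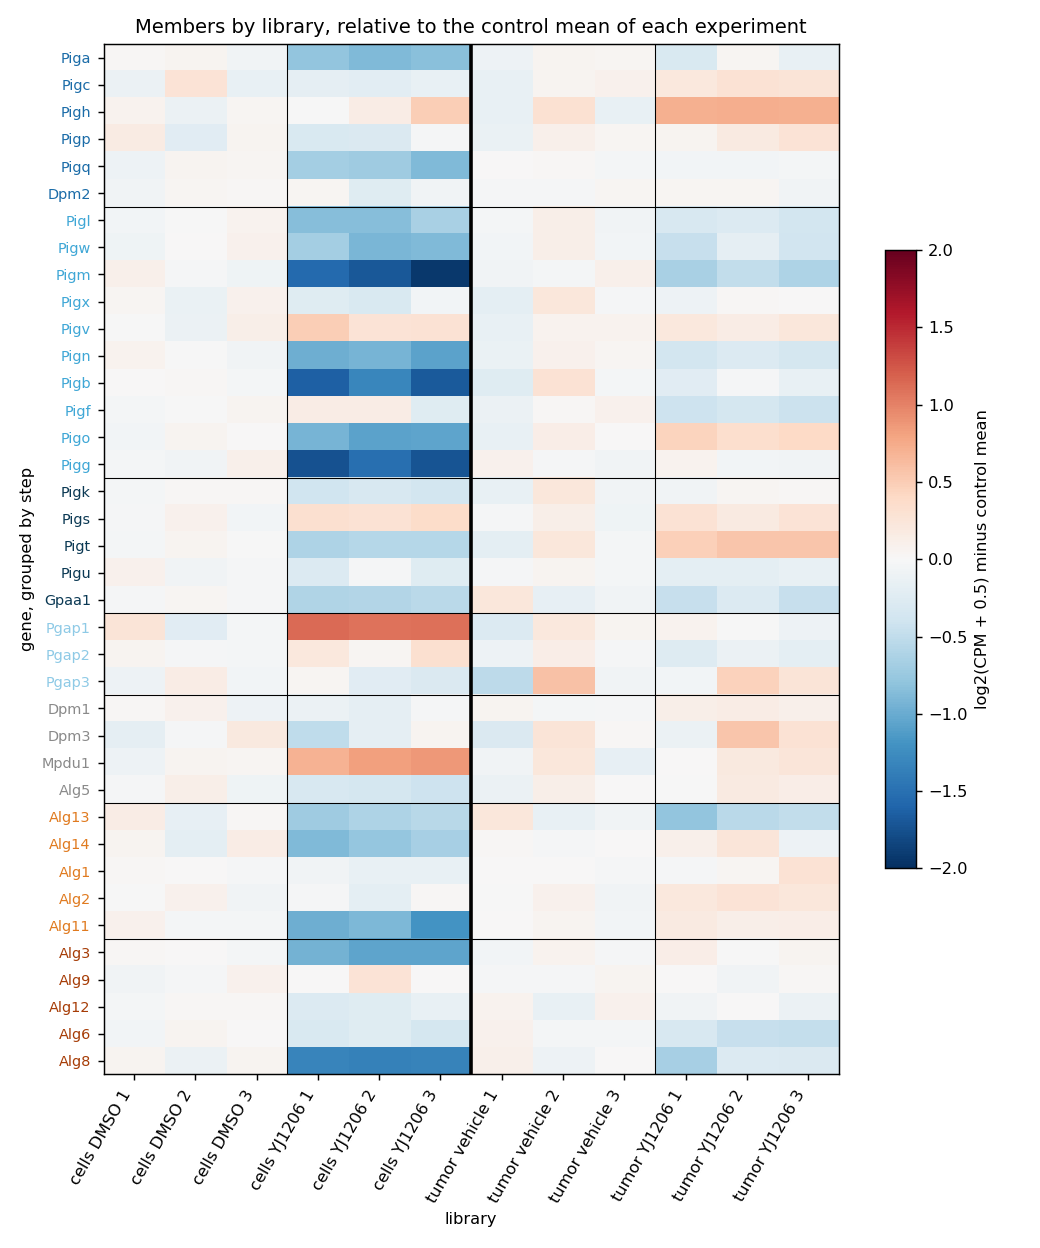
Value of 38 members in each library as log2(CPM + 0.5) minus the mean of the control libraries of the same experiment, with cells on the left and tumors on the right of the thick line and genes grouped by step (thin lines, label colors). Blue is lower and red higher than control, and the deep blue fields of Pigm, Pigg, Pigb and Alg8 (log2 fold change -1.78 to -1.38 in cells) have no counterpart of that depth in tumors.

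In tumors the members did not move together. With YJ1206, 7 of the 38 members tested fell (18.4%) and 5 rose (13.2%) at an edgeR adjusted p under 0.05, close to the 14.9% and 11.9% of all 15558 genes. Groups did not overlap for 11 lower and 9 higher members, beside 22.8% and 21.8% of all genes, and the members' median log2 fold change was -0.01 against 0.01. With libraries 1 and 2 only, no member was called. No member was changed as much as 2-fold. Since bulk RNA was measured, fewer cells of a type and less RNA per cell cannot be told apart.

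Of the GPI genes, Pigm fell and Pigh rose with the lowest adjusted p-values of all members. Pigm was at 31.5, 32.4 and 35.9 CPM in the vehicle libraries and at 21.0, 23.4 and 21.6 CPM in the YJ1206 libraries, a log2 fold change of -0.59 (SE 0.09, edgeR adjusted p = 0.00397). The groups were clearly separate, and Pigm was also the lowest member in cells. Pigh, the subunit of the first transferase that sits on the cytosolic face (chr12:79080664-79089651, minus strand), was at 22.1, 30.5 and 22.2 CPM and then at 40.6, 41.2 and 40.8 CPM, a log2 fold change of 0.71 (SE 0.13, edgeR adjusted p = 0.00842). All treated libraries lay together above the controls, of which library 2 was the highest. Exons of Pigh overlap Plekhh1 on the opposite strand and the noncoding gene 9230116L04Rik on the same strand.

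Other genes of the middle GPI steps fell as well. Pign was at 85.2, 99.2 and 95.6 CPM with vehicle and 72.0, 77.2 and 72.9 CPM with YJ1206, a log2 fold change of -0.33 (SE 0.07, edgeR adjusted p = 0.0154). Pigl was at 31.1, 34.9 and 30.4 CPM, then 25.6, 26.4 and 24.6 CPM (log2 -0.33, SE 0.08, edgeR adjusted p = 0.0265). Pigf was at 9.64, 10.7 and 11.2 CPM, then 7.75, 8.10 and 7.63 CPM (log2 -0.42, SE 0.11, edgeR adjusted p = 0.0282). None of these 3 genes had overlapping groups, and Pigw (log2 -0.35, SE 0.11) missed the threshold at an adjusted p of 0.0568 in edgeR. DESeq2 did not call Pigw either (adjusted p = 0.0617), while limma did on both TPM scales (0.0388 and 0.0364). Pigo went the other way and rose, from 19.8, 24.2 and 22.2 CPM to 30.0, 27.9 and 29.1 CPM (log2 0.39, SE 0.10, edgeR adjusted p = 0.0229), although it was among the 5 lowest members in cells. Limma on log2(TPM + 1) called neither Pign (adjusted p = 0.0956) nor Pigo (adjusted p = 0.0992). With the replicate number as a block, edgeR called neither Pigf (adjusted p = 0.0659) nor Pigo (adjusted p = 0.0565). Pigg, lower in cells by a fitted fold of 0.304, had a log2 fold change of -0.02 (SE 0.08) in tumors, and Pigb one of -0.15 (SE 0.14), and the groups of both overlapped. Pigz was again not tested, with 10, 5 and 0 counts in vehicle and 5, 5 and 7 counts in YJ1206 tumors.

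The transamidase subunits were split in tumors. Pigt rose from 127, 169 and 141 CPM to 202, 212 and 213 CPM (log2 0.52, SE 0.10, edgeR adjusted p = 0.0105). Pigs rose from 65.5, 72.1 and 63.1 CPM to 82.1, 75.5 and 81.0 CPM (log2 0.25, SE 0.07, edgeR adjusted p = 0.0402). Gpaa1 fell from 33.1, 24.9 and 26.9 CPM to 20.3, 23.0 and 20.3 CPM (log2 -0.42, SE 0.13, edgeR adjusted p = 0.0463), and the highest of its controls was library 1. Groups did not overlap for these 3 genes. Limma did not call Pigs on either TPM scale (adjusted p = 0.133 and 0.136), nor did edgeR without a count filter (adjusted p = 0.0561). With the replicate number as a block, edgeR called neither Pigs (adjusted p = 0.0879) nor Gpaa1 (adjusted p = 0.0918). The catalytic subunit Pigk had a log2 fold change of -0.02 (SE 0.10) with overlapping groups, and Pigu had -0.19 (SE 0.07) without overlap and without passing the edgeR test. DESeq2 did not call Pigu either (adjusted p = 0.189), while limma did on both TPM scales (0.0381 and 0.037).

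From the N-glycan precursor arm, 3 genes passed the test in tumors. Alg13 on chromosome X fell from 28.1, 21.5 and 22.8 CPM to 13.7, 16.2 and 17.0 CPM (log2 -0.62, SE 0.14, edgeR adjusted p = 0.0147), but limma did not call it on either TPM scale (adjusted p = 0.11 and 0.106). Its partner Alg14 had 0.09 (SE 0.13) with overlapping groups. Alg6 fell from 17.6, 16.1 and 16.2 CPM to 13.3, 11.9 and 11.9 CPM (log2 -0.43, SE 0.10, edgeR adjusted p = 0.0173). Alg13 and Alg6 had separate groups with library 1 as the highest control. Alg2, which adds the second and the third mannose, rose from 32.5, 34.7 and 31.2 CPM to 38.1, 39.5 and 38.3 CPM (log2 0.23, SE 0.07, edgeR adjusted p = 0.0483). This call was not made by DESeq2 (adjusted p = 0.0678), by limma on either TPM scale (0.163 and 0.154), by edgeR without a count filter (0.0857) or with the replicate number as a block (0.0768), or in 5 of 6 edgeR fits that left out 1 library. Alg8 had a log2 fold change of -0.41 (SE 0.13) and missed the threshold at an adjusted p of 0.0548 in edgeR. It was called lower by DESeq2 (adjusted p = 0.0385) and by limma on both TPM scales (0.0432 and 0.0415). None of the 4 dolichol-phosphate sugar donors passed in edgeR, DESeq2 or limma (0 at an unadjusted p under 0.05), with values of 0.10 to 0.26. Over the 26 members tested and not called, log2 fold changes ran from -0.41 to 0.26 with standard errors of 0.05 to 0.28.

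**Figure D3:**
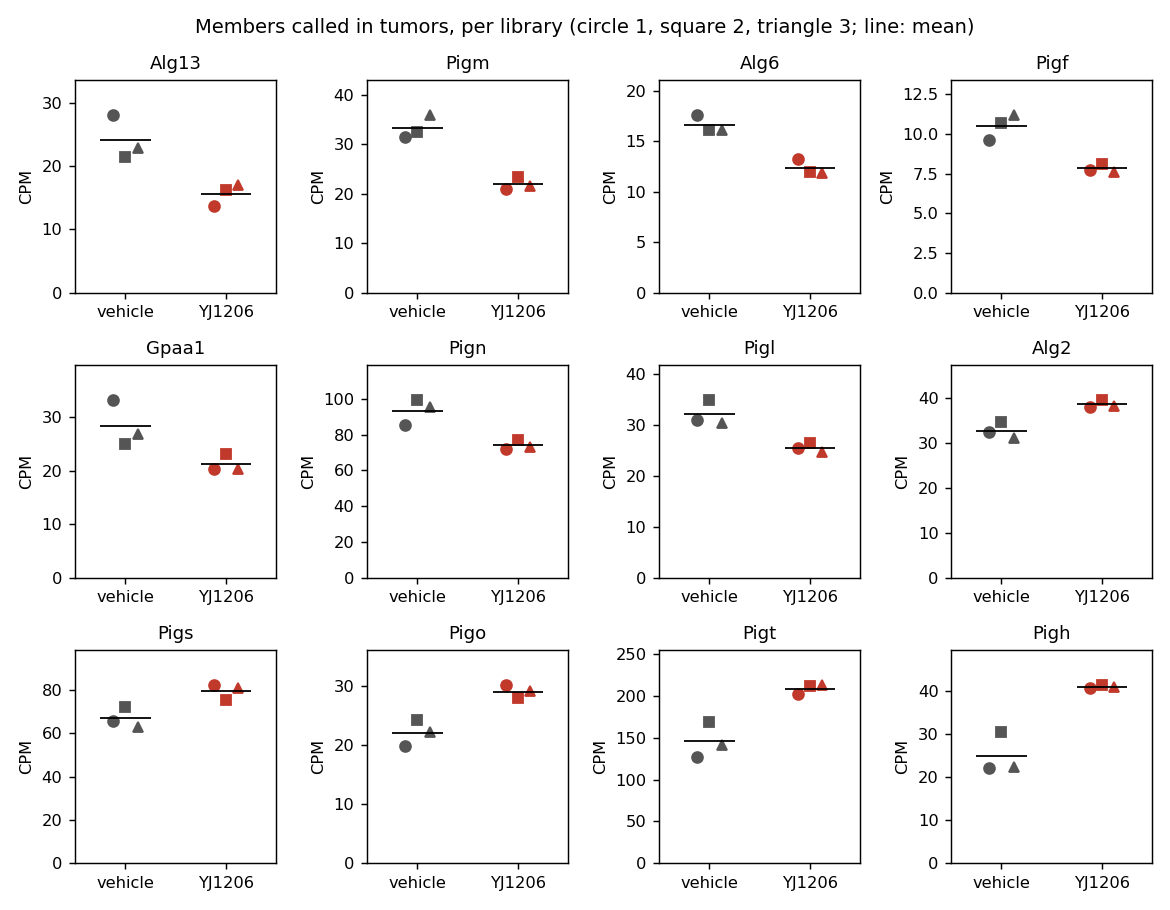
CPM of the 12 members called in tumors (edgeR adjusted p under 0.05), per library, with vehicle in gray, YJ1206 in red and a line at each group mean, ordered from the lowest to the highest fold change. The groups are separate in every panel, for example for Pigm (31.5 to 35.9 against 21.0 to 23.4 CPM) and Pigh (22.1 to 30.5 against 40.6 to 41.2 CPM). The vertical axes start at 0.

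The tumor calls rested on few libraries. Without library 3 of both groups, edgeR called 0 members in either direction, with 5 members at an unadjusted p under 0.05, and it called 1 gene of all 15684 (3068 at an unadjusted p under 0.05). In that fit the log2 fold changes of Pigm, Pigh, Alg13 and Pigt were -0.53, 0.63, -0.73 and 0.48. Without vehicle library 3 alone, or YJ1206 library 3 alone, 2 members were called lower and 1 higher. Without YJ1206 library 1 these were 3 and 2, without YJ1206 library 2 they were 4 and 2, without vehicle library 1 they were 6 and 3, and without vehicle library 2 they were 8 and 5. Pigm, Pigh and Alg13 were called in each of the 6 fits that left out 1 library. Of these 6 fits, Pigt was called in 4, Alg6 and Pign in 3, Pigo, Pigf and Pigl in 2, and Pigs, Gpaa1 and Alg2 in 1.

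Markers of other cell types differed between the tumor libraries as well. The 4 skeletal muscle markers (Acta1, Ckm, Mb, Myh4) summed to 591, 10.2 and 359 CPM in vehicle and to 4.92 to 6.94 CPM in YJ1206 tumors, and 3 of the 3 that could be tested fell. The 5 fibroblast markers summed to 603 to 1520 CPM with vehicle and 439 to 1050 CPM with YJ1206, with 0 of 5 called by edgeR (2 at an unadjusted p under 0.05, and 1 called by DESeq2). Leukocyte markers summed to 53.2 to 67.9 and 71.2 to 88.6 CPM (1 of 4 tested rose), endothelial markers to 92.5 to 98.9 and 106 to 117 CPM (1 of 4 rose), and epithelial markers to 106 to 114 and 171 to 179 CPM (1 of 4 tested rose). The epithelial markers did not move together: of the 4 tested, 2 had a fitted value above 0 and 2 below 0 (lowest log2 -1.72). Of these, Cldn4 was at 28.4 to 36.5 CPM with vehicle and 74.3 to 91.9 CPM with YJ1206. The part of all these cell types in the members' values was not tested. In cells, endothelial markers summed to at most 0.308 CPM, skeletal muscle markers to at most 2.15 CPM and leukocyte markers to at most 5.38 CPM.

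Side by side, 16 members had a fitted value below 0 in both experiments and 4 above 0 in both, while 14 were below 0 in cells and above in tumors and 4 the reverse. Groups did not overlap and were lower in both for 8 of 38 members (21.1%), beside 13.4% of the 11235 genes tested in both experiments. Since the cell values chose the pathway, nothing is read from this difference. Across the 38 members, which share libraries and are not independent, Spearman's rho between the 2 sets of log2 fold changes was 0.34 and Pearson's r was 0.353. Of the 7 members at or below a fold of 0.5 in cells (18.4%, beside 10.5% of all genes), 4 had a fitted value below 0 in tumors, Pigm alone was called lower there, and Pigo was called higher. Genomic length did not order the cell values: Spearman's rho with gene span was -0.019 over members and -0.049 over all genes. In tumors it was -0.393 over the 38 members and -0.037 over all genes, and the members' spans run from 2722 bp (Dpm2) to 266309 bp (Pigk).

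**Figure D4:**
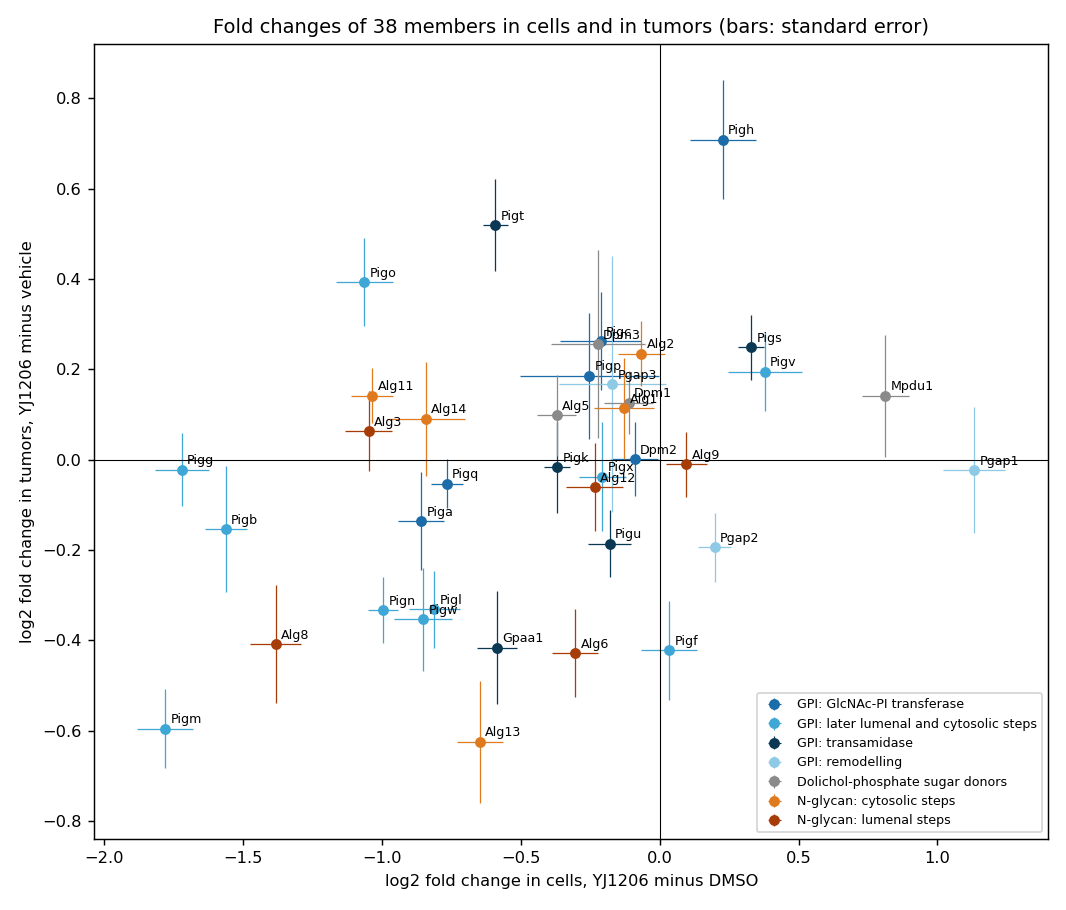
Log2 fold change of 38 members in cells (horizontal axis, YJ1206 minus DMSO) and in tumors (vertical axis, YJ1206 minus vehicle), with standard errors as bars and colors for the step. Points spread to -1.78 in cells but only between -0.62 and 0.71 in tumors, and Pigo and Pigt stand at the upper left, lower in cells and higher in tumors.

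Related genes were counted from lists that the choice of members did not include. All these lists were chosen with earlier results of these data known, so their counts in cells and tumors are given as a description. Of 8 further dolichol and N-glycan precursor genes, 7 were lower and 1 higher in cells at the same threshold, beside 38.3% and 37.8% of all genes. Of 5 further GPI genes tested in cells, 3 were lower and 1 higher, with a median of -0.09. In tumors, 0 of the 8 passed by edgeR or DESeq2 (3 at an unadjusted p under 0.05 in edgeR). Of 6 further GPI genes tested in tumors, 0 passed by either tool (1 at an unadjusted p under 0.05), and their median was 0.18. The oligosaccharyltransferase, which moves the finished N-glycan precursor to protein, showed another picture in tumors, where 7 of 12 subunits rose by edgeR and by DESeq2, beside 11.9% of all genes, and none fell by either tool. Limma on log2(TPM + 1) called 5 of the 12 higher and 1 lower. In the fit without library 3, 6 of the 12 were higher at an unadjusted p under 0.05 and 0 were called. The largest rises by edgeR were those of Ddost (log2 0.60, SE 0.05, edgeR adjusted p = 0.000971), Rpn2 (0.54, SE 0.08), Tusc3 (0.44, SE 0.10) and Dad1 (0.43, SE 0.09). Of 15 tested genes of the endoplasmic reticulum stress response, 11 rose in tumors and 1 fell, beside 11.9% and 14.9% of all genes. Among those that rose were the chaperone cofactor Sdf2l1 (log2 0.66, SE 0.12), the transcription factor Xbp1 (0.63, SE 0.08) and the disulfide isomerase Pdia4 (0.56, SE 0.10). The gene that fell was Atf4 (-0.59, SE 0.15).

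Of 10 genes that supply nucleotide sugars, 5 rose in tumors by edgeR, beside 11.9% of all genes, and 6 by DESeq2, and none fell by either. These include Gfpt1, the entry enzyme of the hexosamine pathway (log2 0.54, SE 0.05), Pgm3 (0.53, SE 0.09), Gmppb (0.46, SE 0.14) and Uap1l1 (0.45, SE 0.08). Of 10 genes for glycan trimming and lectin chaperones, 2 rose by edgeR, beside 11.9% of all genes, Calr (0.65, SE 0.09) and Man1b1 (0.23, SE 0.06). None fell by edgeR, while DESeq2 and limma on log2(TPM + 1) each called 1 gene of this list lower. Transcripts of GPI-anchored proteins moved in both directions: of 30 tested in tumors, 11 rose and 5 fell, beside 11.9% and 14.9% of all genes. The largest rises were those of Ly6d (log2 2.67, SE 0.37), Folr1, a folate receptor (1.42, SE 0.26), Psca, prostate stem cell antigen (1.34, SE 0.15) and Bst2, an interferon-induced surface protein (0.96, SE 0.10). In cells, 5 of 20 tested were lower and 11 higher at the same threshold, beside 38.3% and 37.8% of all genes. All these tumor calls come from the fit of all 6 libraries, and without library 3 no gene of these lists was called by edgeR.

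**Figure D5:**
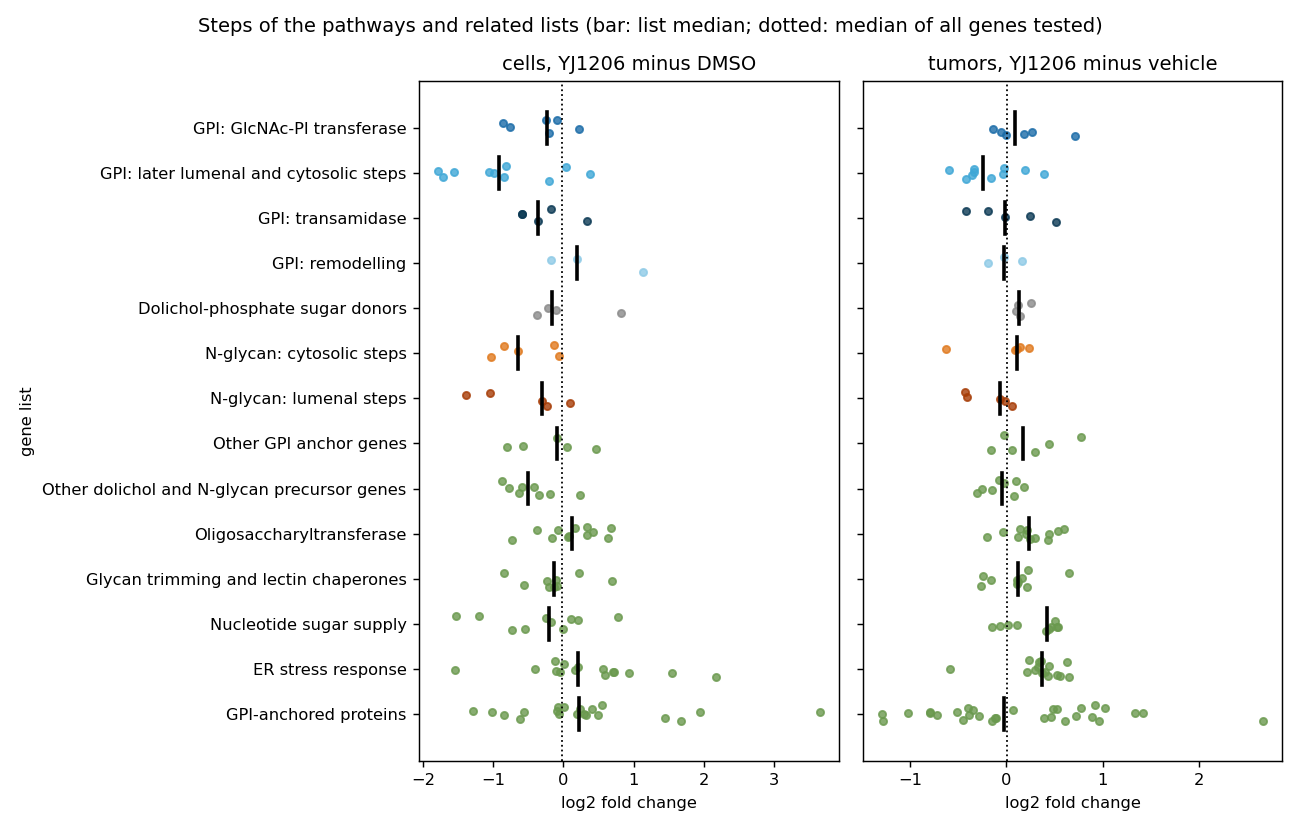
Log2 fold change of each tested gene in the 7 steps of the members (blue, gray and orange) and in related lists (green), in cells (left) and tumors (right), with a bar at each list's median and a dotted line at the median of all genes. In tumors the medians of oligosaccharyltransferase (0.23), nucleotide sugar supply (0.43) and stress response genes (0.37) stand right of the line. In cells the middle GPI steps have the lowest median (-0.92), and since the cell contrast chose the GPI genes, nothing is read from that rank.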

How the data were processed

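RNA sequencing of 12 libraries was analysed, 3 each from DMSO and YJ1206 cells and from vehicle and YJ1206 tumors, grouped by their labels. The authors deposited estimated counts for each gene, fractional for some genes and unscaled between libraries, and TPM values, which the authors scaled for transcript length and to a common sum per library. The submitters' processing notes name kallisto and the mouse builds GRCm38 and mm10, and the version and the strand setting are not given in the sources used here. The study's methods describe libraries made after removal of ribosomal RNA, while polyA RNA is the molecule in the labels of the cells.

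Estimated counts were rounded, since the tests had been planned for counts. Cells and tumors were fitted separately, 6 libraries each, with edgeR 4.0.16 (filterByExpr, TMM, glmQLFit, glmQLFTest) in R 4.3.3, with Benjamini-Hochberg adjustment over all genes tested and a threshold of 0.05. CPM values use TMM-scaled library sizes. Standard errors were taken from the size of the effect and its F statistic. Alternatives were DESeq2 1.42.0, DESeq2 size factors, total counts, no count filter, limma 3.58.1 on log2(TPM + 1) and log2(TPM + 0.1), a replicate block, and leaving out libraries. The steps were tested on simulated counts. The floors (3 counts) cover counting error only, while the standard errors also include the spread between libraries that edgeR estimated. Libraries of a group differed by more than sampling noise (chi-square per gene 1.89 to 49.4), so each was kept, although this does not show that they are independent. The distance of each library from the best weighted mean of the other libraries of its group was computed after the values had been seen.

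The members and all lists were chosen with earlier results of these data known. Per-library values are given for the members called in tumors, the 5 most negative and the 5 most positive in cells, and the member that could not be tested. Of the other lists, up to 4 genes with the largest changes called in tumors are named. Gene positions, exons and overlaps come from GENCODE vM21 (GRCm38), promoters from RefSeq.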

Additional observations from a re-analysis of the deposited data

Results flagged for a closer look

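For 4 members every treated library lay below every control library in cells and above every control library in tumors, 10.5% of the 38 tested, beside 6.7% of the 11235 genes tested in both experiments. The difference between the experiments was not tested, since the cell contrast chose the pathway. The log2 fold changes in cells and tumors were -1.06 and 0.39 for Pigo, -0.59 and 0.52 for Pigt, -1.03 and 0.14 for Alg11, and -0.21 and 0.26 for Pigc. In tumors, Pigo and Pigt passed the edgeR test, while Alg11 (adjusted p = 0.125) and Pigc (adjusted p = 0.117) did not. On log2(TPM + 1) the tumor value of Pigc turned to -0.16.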

How the results depend on the processing

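In cells, the median log2 fold change of the members (-0.28) and of the GPI genes (-0.31) stayed negative under every alternative run. The members' median was -0.27 with DESeq2 and with its size factors, -0.46 with total counts, -0.29 without a filter, -0.58 and -0.59 on log2(TPM + 1) and log2(TPM + 0.1), -0.33 with libraries 1 and 2 only, and -0.35 to -0.29 leaving out 1 library. For the GPI genes it was -0.50 with total counts, -0.33 without a filter, -0.59 and -0.65 on the TPM scales, -0.35 with libraries 1 and 2 only, and -0.37 to -0.32 leaving out 1 library. Total counts turned Alg9 (-0.090) and Pigf (-0.15) below 0. On log2(TPM + 1) and log2(TPM + 0.1) these were Alg9 (-0.22 and -0.23), Pgap2 (-0.21 and -0.22), Pigf (-0.30 and -0.30) and Pigh (-0.069 and -0.078). Leaving out 1 library gave -0.028 to 0.16 for Pigf and -0.11 to 0.0021 for Alg2.

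In tumors, the members called lower and higher numbered 7 and 5, 2 to 8 and 1 to 5 leaving out 1 library, and 0 and 0 with libraries 1 and 2 only, where 5 members were under an unadjusted p of 0.05 in edgeR. The number called higher was 3 without a filter and 2 on either TPM scale. Fitted with the replicate number as a block, 5 were lower and 2 higher. Deviations of same-numbered libraries from their group means correlated at -0.0303 to 0.00316 in tumors and -0.0284 to -0.0184 in cells, so the libraries share only a number. No library of either experiment correlated best with its own number. The median was -0.080 on log2(TPM + 0.1), 0.0068 with libraries 1 and 2 only and -0.025 to 0.085 leaving out 1 library, so it has no stable sign. Of single members, Dpm2 turned to -0.00049 with DESeq2 size factors, -0.0058 without a filter, and -0.087 and -0.089 on the TPM scales, Mpdu1 to -0.079 and -0.081, and Pigc to -0.16 and -0.18. With libraries 1 and 2 only, Alg1 turned to -7.1e-05, Alg12 to 0.014 and Pgap1 to 0.041. Values on both sides of 0 when leaving out 1 library were those of Alg14 (-0.0011 to 0.18), Alg9 (-0.031 to 0.014), Dpm2 (-0.022 to 0.035), Pgap1 (-0.15 to 0.10), Pgap3 (-0.070 to 0.55), Pigb (-0.28 to 0.016), Pigg (-0.071 to 0.023), Pigk (-0.094 to 0.11) and Pigx (-0.14 to 0.091), none of them called. The cause of these shifts was not tested. Depth limits Pigz, which could not be tested.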
